A study of Mus musculus with 8 samples.

Results

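The data compared here are 6mA peak lists of normal mouse embryo brain (CON, 3 lists) and of mouse embryonic stem cells grown with folate (FA4, 1 list). Each peak was counted once, and peaks on autosomes other than chromosome 8 were kept. This gave 28657 of the 90798 peaks in the 8 lists of the series, with 2581, 6169 and 3678 peaks in the CON lists and 16229 in FA4. CON brains came from embryos with closed neural tubes, observed at embryonic days 9.5 to 10.5, with normal saline as the recorded treatment. The labels used here give no mouse strain, sex or diet for CON, and do not say whether the 3 immunoprecipitations used separate embryos. All 3 were called against 1 input, so their spread may be technical. FA4 cells were Sv/129 embryonic stem cells, kept with serum and leukemia inhibitory factor on gelatin, in medium to which folate was added at 4 mg/L. Neither group carries a stated allele or transgene. Brains from embryos with neural tube defects (NTD, 3 lists; from dams fed little folate and injected on gestational day 7.5 with 1.5 mg/kg of methotrexate) and cells without folate (FA0, 1 list) are cited only as the partner lists of the same experiments. Tissue, experiment, input and annotation all differ between CON and FA4 and cannot be told apart. No RNA was measured, so the tissue and cell type could not be checked against marker expression.

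N6-methyladenine (6mA) is adenine with a methyl group on its exocyclic nitrogen. It is common in bacterial DNA and rare in mammalian DNA, where its amount and function are debated, and Alkbh1 is one of the enzymes reported to remove it. The antibody method reads regions of pulled-down fragments, not single bases, and simple repeats and multi-copy sequence are known sources of background in it.

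Deposited peaks rarely fell on gene starts. Of 29954 annotated start windows of 300 bases (250 before and 50 after a start), any CON list overlapped 65, FA4 overlapped 52 and both together overlapped 0. Of all CON regions 1.33% had an FA4 peak, so 0 among so few windows does not set the groups apart. The 6 windows below show what lay under such peaks: 3 under CON peaks and 3 under FA4 peaks. Capitals mark bases under a deposited peak of the lists named, and sequences are 5′ to 3′ on the gene's strand, from RefSeq on GRCm38.p6, the assembly of mm10.

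The start of A530040E14Rik, in the Sp100 and Sp140 gene cluster, was the 1 window under peaks of more than 1 CON list, and all 3 lists held it (chr1:85105843-85106142, plus strand).
A530040E14Rik: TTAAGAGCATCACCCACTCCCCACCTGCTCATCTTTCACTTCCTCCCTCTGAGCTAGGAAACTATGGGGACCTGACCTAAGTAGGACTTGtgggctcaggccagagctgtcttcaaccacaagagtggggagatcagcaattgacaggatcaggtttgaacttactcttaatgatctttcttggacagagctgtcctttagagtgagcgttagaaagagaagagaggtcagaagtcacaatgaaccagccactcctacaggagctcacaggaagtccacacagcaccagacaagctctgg
Rbp2, which encodes a retinol-binding protein of the intestine, had a CON 2 peak over its start (chr9:98490287-98490586, plus strand).
Rbp2: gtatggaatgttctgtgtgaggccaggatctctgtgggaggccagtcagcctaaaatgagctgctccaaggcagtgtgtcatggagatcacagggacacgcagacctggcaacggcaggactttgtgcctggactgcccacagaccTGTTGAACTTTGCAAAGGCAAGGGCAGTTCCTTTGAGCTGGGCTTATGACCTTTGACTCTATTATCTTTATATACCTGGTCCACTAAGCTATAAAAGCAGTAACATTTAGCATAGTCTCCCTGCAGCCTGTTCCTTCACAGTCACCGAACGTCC
Olfr1449, an olfactory receptor gene, had a CON 2 peak there as well (chr19:12934490-12934789, plus strand).
Olfr1449: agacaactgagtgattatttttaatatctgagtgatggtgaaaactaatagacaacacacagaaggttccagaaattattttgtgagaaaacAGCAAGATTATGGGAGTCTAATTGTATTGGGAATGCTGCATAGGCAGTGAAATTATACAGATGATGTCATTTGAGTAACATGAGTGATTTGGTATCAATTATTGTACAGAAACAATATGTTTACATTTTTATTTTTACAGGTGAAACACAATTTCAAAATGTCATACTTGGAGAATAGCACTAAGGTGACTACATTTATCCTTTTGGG
Duxf3, a gene of the Dux family of double homeobox factors that act in early embryos, had an FA4 peak (chr10:58233040-58233339, minus strand). CON 1 and CON 3 had peaks in the same region, beyond the window, with 33 and 54 tags against 57 in FA4.
Duxf3: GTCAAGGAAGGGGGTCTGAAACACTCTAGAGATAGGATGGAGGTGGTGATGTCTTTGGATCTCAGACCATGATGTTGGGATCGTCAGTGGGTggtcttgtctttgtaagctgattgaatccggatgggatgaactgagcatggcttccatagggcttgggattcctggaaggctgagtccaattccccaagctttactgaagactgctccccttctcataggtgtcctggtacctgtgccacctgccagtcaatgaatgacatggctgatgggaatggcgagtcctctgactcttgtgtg
Gm43358 had an FA4 peak at an adenine- and thymine-rich start (chr5:10938175-10938474, minus strand).
Gm43358: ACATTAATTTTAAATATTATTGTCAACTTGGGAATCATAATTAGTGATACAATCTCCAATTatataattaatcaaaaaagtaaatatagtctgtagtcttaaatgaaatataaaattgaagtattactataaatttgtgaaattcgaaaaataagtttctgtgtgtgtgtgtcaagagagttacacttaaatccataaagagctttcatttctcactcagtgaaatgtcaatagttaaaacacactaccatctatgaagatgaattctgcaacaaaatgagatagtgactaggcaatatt
Serinc4, of a family of serine incorporator membrane proteins, had an FA4 peak over nearly the whole window (chr2:121456715-121457014, minus strand).
Serinc4: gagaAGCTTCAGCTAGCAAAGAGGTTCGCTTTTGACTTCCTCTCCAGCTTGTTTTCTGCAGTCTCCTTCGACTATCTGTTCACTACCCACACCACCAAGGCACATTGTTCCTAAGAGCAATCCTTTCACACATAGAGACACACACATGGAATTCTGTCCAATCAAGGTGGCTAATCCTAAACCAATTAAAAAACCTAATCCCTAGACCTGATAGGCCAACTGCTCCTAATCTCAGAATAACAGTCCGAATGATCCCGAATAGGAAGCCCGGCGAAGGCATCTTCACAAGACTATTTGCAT

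The A530040E14Rik peaks held 23, 23 and 31 tags in the CON lists, at authors' folds of 2.09, 2.46 and 2.65. The Rbp2 and Olfr1449 peaks held 11 tags each, and the Duxf3, Gm43358 and Serinc4 peaks held 57, 11 and 12 tags. Windows under peaks were rich in adenine and thymine on both sides. Their median content of the pair was 55.3% under CON peaks and 54.2% under FA4 peaks, against 47.0% over all windows, and the median number of CpG pairs was 3, 3 and 7. A run of ACACACACAC, on either strand, stood in 4.62% of the windows under CON peaks, 7.69% of those under FA4 peaks and 1.53% of all windows. The adenine run AAAAAAAAAA stood in 1.54%, 0% and 4.70%, AGAGAGAGAG in 1.54%, 0% and 1.12%, and GATC in 49.2%, 53.8% and 47.6%. With 65 and 52 windows these shares rest on few sequences, and a match is a description only.

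CON lists were sparser than FA4. They held 1.13, 2.71 and 1.62 peaks per Mb (1.82 ± 0.807, SD, n = 3), against 7.13 in FA4, a CON over FA4 ratio of 0.255. CON peaks covered 0.0516 ± 0.0229% of the sequence and FA4 peaks 0.222%. FA4 lay outside the range of the CON lists, but with 1 list against 3 an exact permutation cannot give a p below 0.25, so no test was made between them here or below. NTD lists held 2.22 to 2.82 peaks per Mb and FA0 held 15.3, so the brain lists and the cell lists fell on separate sides. Read totals were not used here, so depth is not known. The commonest background implied by the folds was 2.57, 2.13 and 2.69 tags in the CON lists and 1.86 in FA4, and the median number of tags was 8 or 9 in each of these lists.

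CON peaks were narrower. Mean width was 283.3, 283.5 and 283.9 bases in the CON lists (283.6 ± 0.356, SD, n = 3) and 311.3 bases in FA4, and median width was 260, 260 and 261 bases against 283. The whole distribution was displaced, since the narrowest CON peaks had 217 to 221 bases and the narrowest FA4 peak 231. Peaks of 500 bases or more made up 1.72 ± 0.159% of the CON lists and 4.23% of FA4. The displacement stood among peaks with the same tag count, at 280.8 ± 4.66 against 313.0 bases with 8 tags and 284.5 ± 5.38 against 316.1 bases with 9. It ran the other way among peaks with an authors' q of at most 0.05, where CON peaks were wider by 38.4 bases on average, and those made up 1.70 ± 0.467% of the CON lists and 4.45% of FA4. Mean width was 264.4 to 269.7 bases in the NTD lists and 313.0 in FA0. The CON, NTD and cell lists thus stood apart in width, and whether fragment size or settings of the caller moved with it was not tested.

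**Figure D1:**
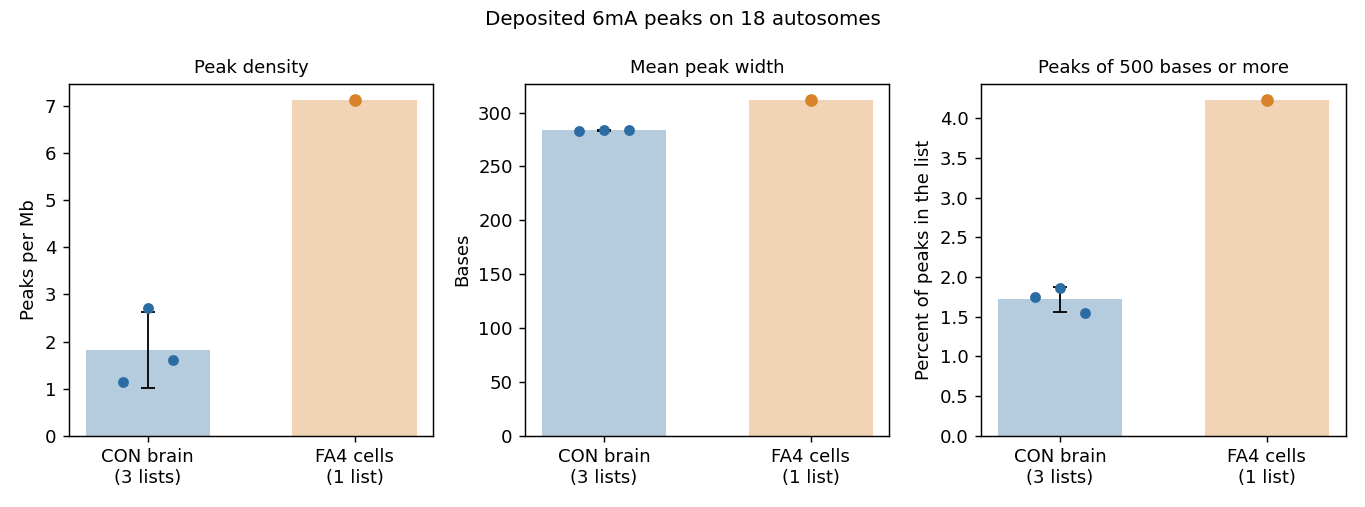
Peak density (peaks per Mb), mean peak width (bases) and share of peaks of 500 bases or more (percent) on 18 autosomes, for CON brain and FA4 cells. Points are lists, bars are means and lines the SD over the 3 CON lists; FA4 lies above all 3 CON lists in each panel.

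The deposited annotation put CON peaks at promoters more than FA4 peaks, and the gap was smaller on a common gene table. The authors' promoter class held 6.39%, 6.26% and 7.45% of the peaks of the CON lists (6.70 ± 0.653%, SD, n = 3) and 3.11% of FA4 (95% Wilson interval 2.85% to 3.38%, counting error only). Predicted transcripts made up 65.7 ± 0.275% of the deposited CON rows and 0% of the FA4 rows. Counting only promoter peaks on curated transcripts left 3.50 ± 0.245% in CON and 3.11% in FA4. On 1 gene table, peaks within 2 kb on either side of a coding gene's start made up 2.60 ± 0.168% in CON and 2.48% in FA4, inside the range of the CON lists. Peaks in the 2 kb upstream made up 1.47%, 1.39% and 1.63% of the CON lists (1.50 ± 0.121%) and 1.43% of FA4 (1.26% to 1.62%), and such sequence is 1.52% of the autosomes used. Starts were known for 80.2% of the coding genes, so these shares are lower than a full table would give. The other deposited classes differed in the same lists, with 18.2 ± 0.452% against 12.6% upstream, 1.52 ± 0.136% against 0.955% exonic, 25.6 ± 1.29% against 29.3% intronic and 48.0 ± 1.07% against 54.0% intergenic.

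**Figure D2:**
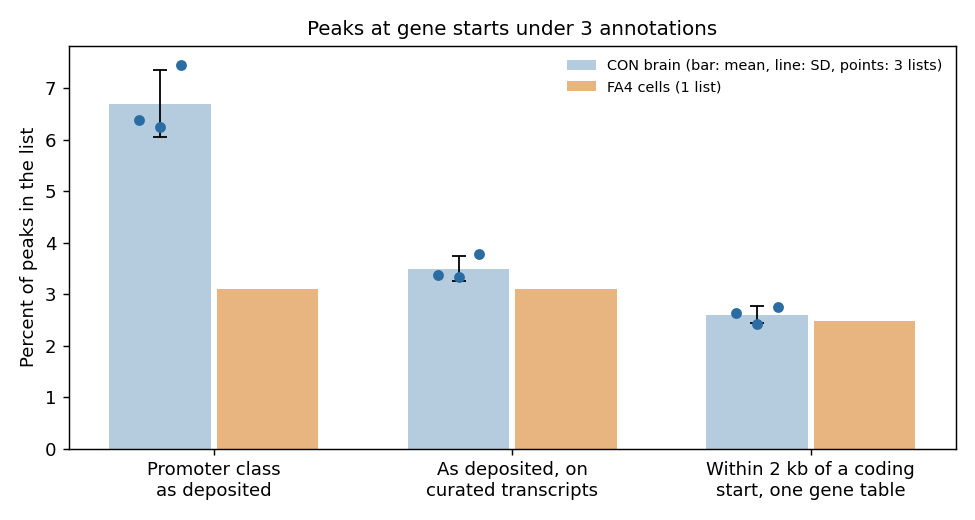
Percent of peaks at gene starts in CON brain and FA4 cells under 3 annotations: the deposited promoter class, that class on curated transcripts alone, and peaks within 2 kb of a coding gene's start in 1 gene table. Bars are means over the 3 CON lists with SD and points, or the 1 FA4 list; the means of 6.70% and 3.11% become 2.60% and 2.48% on 1 gene table.

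Gene bodies took about their part of the sequence on both sides. In 1 gene table, 39.8%, 41.5% and 42.0% of the peaks of the CON lists (41.1 ± 1.12%, SD, n = 3) and 40.1% of FA4 (39.3% to 40.8%) lay inside a protein-coding gene. Such genes make up 41.0% of the sequence used. Bins of 1 Mb with at most 2 coding genes, 716 of 2286 bins, held 25.9 ± 1.78% of the CON peaks and 27.1% of the FA4 peaks, inside the CON range. Their density was 0.826, 0.886 and 0.772 times the mean of the list in CON and 0.865 in FA4, so every list was sparser there. Relative to the mean density of each list, bins with at least 12 coding genes held 1.14, 1.12 and 1.21 times the mean in CON and 1.08 in FA4. The first 3 assembled Mb of the chromosomes held 3.22%, 2.63% and 3.05% of the CON peaks and 3.27% of the FA4 peaks (3.01% to 3.56%). This small gap turned round among peaks with q of at most 0.05, where the CON share was larger by 14.3 percentage points. The gene body share also parted there, by -12.4 points (CON minus FA4).

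Few CON peaks lay where FA4 had one. Of the CON peaks, 72, 90 and 78 overlapped an FA4 peak by at least 1 base, which is 2.79%, 1.46% and 2.12% of their lists (2.12 ± 0.665%, SD, n = 3). CON peaks met by another CON list made up 1.31% to 3.41%, although FA4 is the longer list to be met by. FA4 peaks, widened by the width of a CON peak, reached 0.424% of the sequence, and the CON lists 0.0642% to 0.153%. From the other side, 162 of 16229 FA4 peaks overlapped any CON peak (0.998%). Overlap was more frequent among peaks with a small q, although most overlapping peaks had a q above 0.05 (40 of 72, 56 of 90 and 47 of 78 in CON). Among CON peaks with q of at most 0.05 (52, 72 and 71 of them), 61.5%, 47.2% and 43.7% overlapped FA4, against 0.918% to 1.58% of the others. Among FA4 peaks, 52 of 722 with q of at most 0.05 overlapped CON (7.20%, interval 5.53% to 9.32%), against 110 of 15507 others (0.709%). Overlap also moved with the background that the authors' fold implies. It was 0.704% to 0.915% of CON peaks at the common background of their list and 8.06% to 13.2% of those above it, and whether that background sets the overlap was not tested.

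Recurrence within CON went with presence in FA4. Merging the CON lists gave 12219 regions, of which 162 (1.33%) had an FA4 peak. Of the 12064 regions in 1 CON list, 118 did (0.978%, interval 0.817% to 1.17%). Of the 107 in 2 lists, 13 did (12.1%, 7.24% to 19.7%), and of the 48 in all 3, 31 did (64.6%, 50.4% to 76.6%). Regions in 1, 2 and 3 lists also had a median of 8, 12.5 and 176.5 tags, and 9.85%, 71.0% and 95.8% of them had a raised background. FA0 peaks lay in 1.57%, 24.3% and 66.7% of the same regions.

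**Figure D3:**
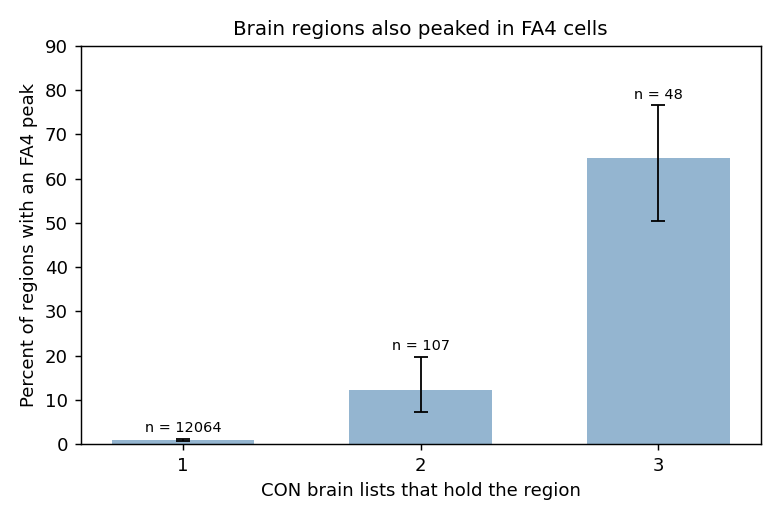
Percent of CON brain regions that also had an FA4 peak, by the number of CON lists that held the region. Lines are 95% Wilson intervals (counting error only) and n is the number of regions; the share is 0.978%, 12.1% and 64.6% in 1, 2 and 3 lists.

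FA4 and at least 2 CON lists together held 44 regions, 31 of them in all 3 lists. Only 8 lay inside a coding gene. The first assembled Mb of chromosome 9 held 10, and another 4 stood between 13 and 14 Mb of chromosome 17. A further 6 stood within 1 kb of the last base that any gene or peak reached on a chromosome. Peaks of the lists help to set that base, so it is not a distance measured to an assembly end. FA0 had a peak in 40 of the 44 and an NTD list in 36. Of all 12219 CON regions, 2.03% had an FA0 peak and 244 had a peak of an NTD list. The 44 were picked for recurrence, which went with high tag counts. At the 14 regions with a median of 1000 or more CON tags, FA4 had 0.913 to 1.03 times the CON tags, at authors' folds of 1.01 to 1.80 in CON and 1.74 to 2.66 in FA4. The implied background in FA4 was 0.498 to 0.745 times that in CON at these 14.

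The 10 shared regions with the highest median percentile of fold are given with mm10 coordinates. The first lay 307 kb from Cd180, a B cell surface receptor gene (chr13:102386877-102387178), with 23 and 25 tags in CON 1 and CON 2 and 42 in FA4, at folds of 3.22 and 4.07 in CON and 9.37 in FA4. The second lay 19.4 kb from Tyr, which encodes the pigment enzyme tyrosinase (chr7:87512787-87513052), with 11 and 11 tags in the same CON lists and 16 in FA4. The third was at the last base reached on chromosome 19 (chr19:61331290-61331557), with 384, 347 and 376 tags in the CON lists and 272 in FA4. Shared regions thus ran from near the usual tag count of a peak to far above it. A region near A530032D15Rik (chr1:85027389-85027758) had 19 and 16 tags in CON 1 and CON 2 and 17 in FA4. One beside Slc51a, an organic solute transporter gene (chr16:32490052-32490720), had 6 and 13 tags in CON 2 and CON 3 and 9 in FA4. One inside Spata1 (chr3:146476762-146478431) had 10 and 10 tags in CON 1 and CON 2 and 12 in FA4. The region inside Nova1, a neuronal splicing regulator, was in all 3 CON lists (chr12:46707723-46708365), with 14, 14 and 12 tags against 11 in FA4. The others stood near Chil3 (chr3:106182779-106183457), a chitinase-like protein of macrophages, with 6 and 10 tags in CON 2 and CON 3 and 13 in FA4, near Mrgprd (chr7:145340952-145341440), a receptor of sensory neurons, and near Gm45871 (chr18:90602207-90602624). The last pair had 809 to 919 and 625 to 777 tags in CON, against 657 and 538 in FA4. A q of at most 0.05 in every list holding the region was reached by 23 of the 44 shared regions. Among the 10 listed, those near Cd180, Mrgprd and Gm45871 and that on chromosome 19 reached it. The CON peaks near Chil3 and in Spata1 had a deposited −log10 q of 0, the weakest possible value. It was 0 and 0.52 near Tyr in CON 1 and CON 2, and 0 and 0.83 beside Slc51a in CON 2 and CON 3. In Nova1 it was 0, 1.40 and 0 in the CON lists.

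Of the 48 regions in all 3 CON lists, 17 had no FA4 peak. The leading 1 lay in Usp17le, a deubiquitinase gene with many copies (chr7:104771542-104772421), with 13, 8 and 15 tags and folds of 3.64, 2.87 and 4.33. Another, 209 kb from Snrpn, an imprinted splicing gene active in neurons (chr7:59773384-59773714), had 16, 20 and 28 tags. The next were in Zfp981 and Zfp993, overlapping zinc finger genes (chr4:146513383-146513821), with 13, 14 and 20 tags, and in Apoa1, the main protein of high-density lipoprotein (chr9:46229917-46230348), with 9, 8 and 9. The fifth, near Gm46934 among the Pramel genes (chr5:94793732-94794079), had 12, 7 and 9. Most of these peaks had few tags, so absence from FA4 means that no peak was called there. Among the named regions, that in Usp17le had a peak in every NTD list and that in Apoa1 in NTD 1 alone. The others had none in the NTD lists, so they were not shared by all brain lists.

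Among the 5 FA4 peaks with the highest fold, those in Ttc21b and near Cd180 had a CON counterpart. Over all FA4 peaks 0.998% had one, and 7.20% of those with q of at most 0.05. The highest fold was in Flt1, a receptor of vascular endothelial growth factor (chr5:147611433-147611667), at 33.2 with 94 tags, and no CON list had a peak there. Next came Ttc21b, a gene of transport in cilia (chr2:66189210-66189476), at 10.2 with 46 tags in FA4, where CON 1 had 26 tags at a fold of 3.26. The region near Cd180 followed at 9.37. Klhl31 (chr9:77652705-77653204, fold 7.23, 27 tags) and sequence 97.4 kb from the pheromone receptor gene Vmn2r87 (chr10:130594541-130594998, fold 7.20, 107 tags) had none in CON. FA0 had a peak at all 5, against 3.19% of all FA4 peaks and 16.1% of those with q of at most 0.05.

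Chromosomes differed between the groups in how densely they were peaked. Relative to the density of its list, FA4 lay outside the range of the CON lists on 14 of 18 autosomes (77.8%), below it on 5 and above it on 9. Chromosome 7 held 1.13, 1.08 and 1.06 times the list density in CON and 0.389 in FA4. Chromosome 4 held 1.17, 1.11 and 1.25 in CON and 0.569 in FA4, and chromosome 12 held 0.912, 0.931 and 0.942 in CON and 0.523 in FA4. Chromosomes 9 and 18 were also below the CON range in FA4. Chromosome 19 held 0.892, 1.13 and 0.828 in CON and 1.53 in FA4, and chromosomes 2 and 3 held means of 0.916 and 0.937 in CON and 1.25 and 1.27 in FA4. The others above were 6, 10, 11, 15, 16 and 17, and chromosome 11 was above by the least (1.109 in the highest CON list, 1.110 in FA4). The densest chromosome exceeded the sparsest 1.39, 1.38 and 1.54 times in the CON lists and 3.92 times in FA4. FA0, from the same cell line, gave 1.66 times, with 0.903, 0.943 and 0.903 on chromosomes 4, 7 and 12. FA4 peaks on the sparse chromosomes were like the rest, with a median of 8 tags on every autosome and a raised background at 28.6% to 32.0% on 4, 7 and 12, against 22.7% to 38.6% over all 18. What set these densities was not tested.

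**Figure D4:**
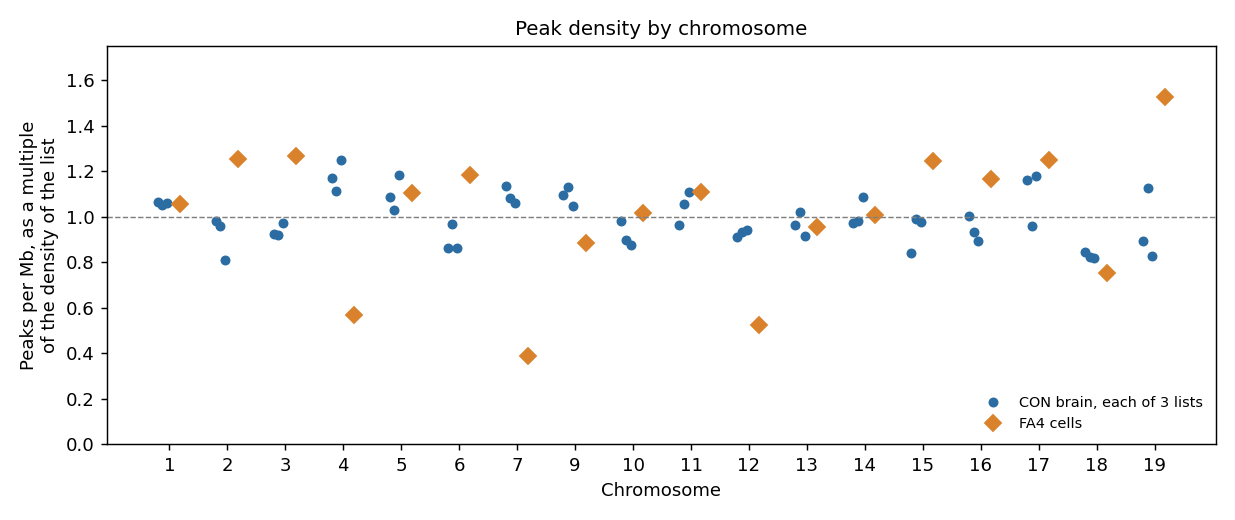
Peaks per Mb on each of 18 autosomes, as a multiple of the density of the whole list, for the 3 CON brain lists (circles) and FA4 cells (diamonds). The CON lists stay between 0.809 and 1.25, while FA4 spans 0.389 on chromosome 7 to 1.53 on chromosome 19.

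Several of the densest places held families of similar genes. In 2286 bins of 1 Mb the mean number of peaks was 1.13, 2.70 and 1.61 in the CON lists and 7.10 in FA4. At least 5 times the mean was reached by every CON list in 7 bins (0.306%), and at least 4 times the mean by FA4 in 7 (0.306%), with 3 in both; these limits and bins were chosen after the values were seen. The bin of Sp140 and Sp100, genes of nuclear body proteins (chromosome 1, 85 to 86 Mb), held 34, 40 and 30 peaks in CON and 22 in FA4. The bin of Zfp978 and other zinc finger genes (chromosome 4, 147 to 148 Mb) held 29, 23 and 31 in CON and 31 in FA4. Both held over 8 times the mean in every CON list; FA4 held 3.10 and 4.37 times its mean there and FA0 held under 2 times. Its neighbour with Zfp993 (146 to 147 Mb) held 13, 19 and 11 in CON and 29 in FA4, the first assembled Mb of chromosome 9 held 12, 19 and 12 against 32, and the Tcp10c bin of chromosome 17 held 13, 19 and 18 against 21. A raised background stood at 94.1%, 87.5% and 93.3% of the CON peaks in the Sp140 bin and 95.5% in FA4. In the Zfp978 bin it was 86.2%, 82.6% and 77.4% against 96.8%. The rest of these bins had 63.6% to 100% in CON and 47.6% to 93.1% in FA4.

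The groups parted in a stretch of chromosome 5 that holds Pramel genes, a multi-copy family active in germ cells and early embryos. Between 94 and 95 Mb the CON lists held 18, 21 and 26 peaks and FA4 held 0, while the NTD lists held 23, 25 and 24 and FA0 held 1. All brain lists were high and both cell lists near empty. The next bin, with Pramel45 to Pramel50, held 14, 14 and 9 in CON and 6 in FA4. FA4 had no peak in 34 bins (1.49%), and CON 1, CON 2 and CON 3 had none in 36.6%, 6.69% and 22.9%. The bin before, with Pramel33 to Pramel36, held 2, 7 and 5 in CON, against means of 1.13, 2.70 and 1.61 per bin. FA4 held 5 there against 7.10, FA0 14 against 15.3 per Mb, and the NTD lists 11, 8 and 8. The CON lists were thus above their means and both cell lists below. Most CON peaks of the 94 to 95 Mb bin lay outside the Pramel genes, with 4, 2 and 3 of them inside one. Of the 18 Pramel genes on chromosome 5, singled out after their values were seen, 9 had a peak inside in any CON list (16.6% of all coding genes did). In FA4 1 did (19.5% of all coding genes). Distinct peaks inside them numbered 6, 4 and 5 in the CON lists, 1 in FA4 and 3 in FA0. The peaks of the first bin had a raised background in 33.3%, 33.3% and 23.1% of cases.

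At the start of chromosome 14 FA4 was the denser, over a stretch of multi-copy predicted genes. From 3 to 4 Mb the CON lists held 0, 1 and 0 peaks and FA4 held 37, from 4 to 5 Mb 0, 1 and 1 against 38, and from 6 to 7 Mb 2, 4 and 6 against 33. In the last bin the CON lists stood at 1.77, 1.48 and 3.73 times their mean and FA4 at 4.65 times, so CON was not sparse there. The bins between and after these held 0, 2 and 0 against 27 (5 to 6 Mb) and 0, 1 and 2 against 25 (7 to 8 Mb). FA0 held 37 to 51 in these 5 bins, so both cell lists were high, and no CON list held more than 6 in any of them. From 91.9% to 100% of the FA4 peaks in the 3 densest of these bins had a raised background. The Creb3l1 bin of chromosome 2 (92 to 93 Mb) held 3, 2 and 1 in CON, 31 in FA4 and 18 in FA0. The sources used here do not say how reads of near-identical copies were placed, and their part in these bins was not tested. Across bins, Spearman's rho was 0.111 to 0.131 between CON lists, 0.0390 to 0.0682 between CON and FA4, 0.0927 to 0.114 between CON and FA0, and 0.203 between FA4 and FA0. These are descriptions over bins that share the same assembly gaps and repeats.

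**Figure D5:**
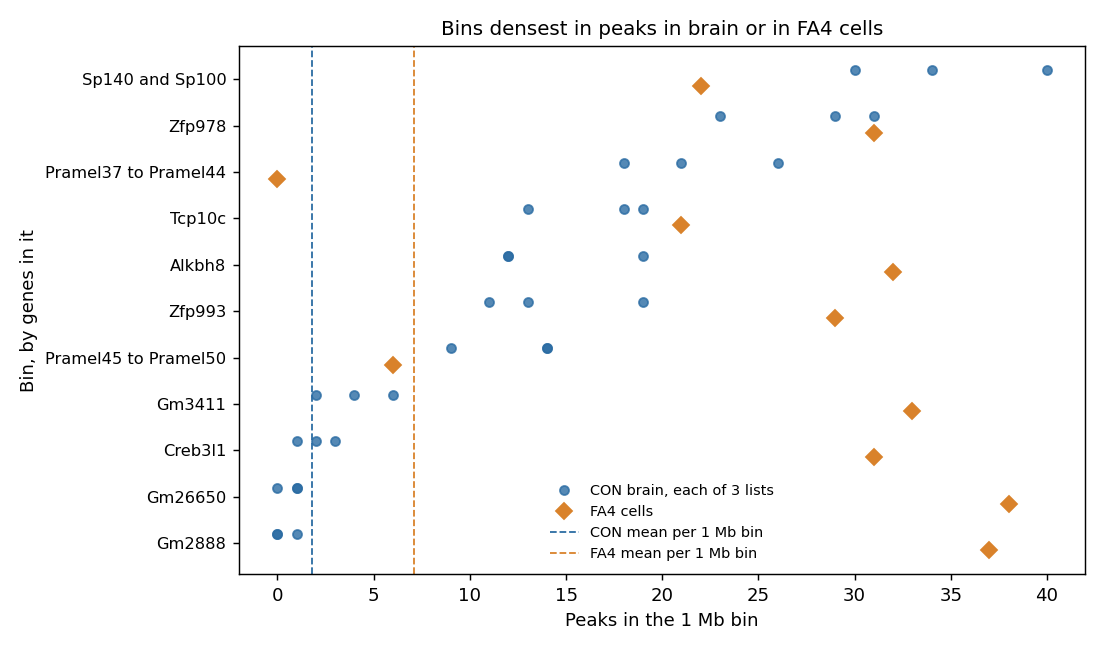
Peaks in the 1 Mb bins that were densest in the 3 CON brain lists (circles) or in FA4 cells (diamonds), named by genes in them, with dashed lines at the mean per bin. The bin of Pramel37 to Pramel44 has 18 to 26 CON peaks and 0 FA4 peaks; those of Gm26650 and Gm2888 have at most 1 CON peak and 38 and 37 FA4 peaks.

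At the level of genes, long genes held most peaks on both sides. Of 19622 protein-coding genes, 920 (4.69%), 1973 (10.1%) and 1288 (6.56%) had a peak inside in the CON lists and 3829 (19.5%) in FA4. Genes with a peak had a median length of 111, 101 and 102 kb in CON and 77.6 kb in FA4, against 17.5 kb over all. All 3 CON lists had a peak in 165 genes (0.841%), and FA4 in 142 of those, whose median length was 553 kb. The other 23 (0.117%) had no FA4 peak, and 2268 (11.6%) had an FA4 peak and none in CON. Density per length in genes over 300 kb was 0.919, 0.949 and 0.871 times that of all genes in the CON lists and 0.945 in FA4. In genes under 10 kb it was 0.995, 1.01 and 0.868 in CON and 0.753 in FA4, below every CON list. The share of genes with a peak rose with length on both sides, but the shortest genes were relatively sparser in FA4.

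The 5 genes with most CON peaks were Zfp978 with 10, 10 and 11 in the CON lists and 5 in FA4, Gm38510 with 10, 12 and 5 against 9, Zfp993 with 6, 9 and 7 against 14, Sp140 with 9, 7 and 4 against 3, and Dlg2, a synaptic scaffold, with 6, 11 and 1 against 4. All but Dlg2 lie in the crowded bins of chromosomes 1 and 4, and Dlg2 is 1973 kb long. The 5 with most FA4 peaks included Zfp993 and 4 long genes. Cntnap2, a neuronal adhesion gene, held 3, 4 and 3 in CON and 24 in FA4. Trpm3, a cation channel gene, held 2, 3 and 1 against 19, Macrod2, an ADP-ribose hydrolase gene, 0, 7 and 2 against 18, and Dnah8, a sperm dynein gene, 0, 1 and 4 against 14. Cntnap2 and Macrod2 lie on chromosomes 6 and 2, which were denser in FA4, and Trpm3 on chromosome 19, the densest there.

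Genes with peaks in every CON list and none in FA4 were led by Gabrg3, a subunit of the receptor for the transmitter GABA, with 1, 2 and 3. Rora, a nuclear receptor, had 1, 1 and 3, Slc24a2, a calcium exchanger of neurons, 2, 2 and 1, Tcp10c of the t-complex 1, 1 and 3, and 2700049A03Rik 1, 1 and 1. FA0 had 5, 10, 4, 1 and 4 peaks in the same genes, so none of them lacked peaks in both cell lists. Gabrg3, Slc24a2 and 2700049A03Rik lie on chromosomes 7, 4 and 12, the sparse ones in FA4. Genes with FA4 peaks and none in CON were led by Gm26650 with 7, on the dense stretch of chromosome 14. Grm3, a glutamate receptor, Kcnq3, a potassium channel of neurons, Myo3a, a myosin of sensory hair cells, and Rfx3, a regulator of cilia, had 6 each, and all 4 are over 200 kb long (240 to 391 kb). An NTD list had a peak in each of these 4, so none of them lacked peaks in all brain lists.

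In 14 lists of genes, peaks per length were set against all coding genes of the same list. FA4 lay outside the range of the CON lists in 4 of 14 (28.6%): below it for zinc fingers, neural progenitor and germ layer genes, and above it for vomeronasal receptors. Leaving out 1 CON list made this 6, 6 or 9 lists, the 9 without CON 3, so the count depends on how many lists set the range. The zinc finger list held the most peaks of these 4. Zfp genes held 3.47, 2.18 and 2.84 times the density of all genes in the CON lists (2.83 ± 0.645, SD, n = 3) and 1.59 in FA4. Members with a peak numbered 21, 35 and 25 in CON and 67 in FA4, of 335. These are 6.27%, 10.4% and 7.46% against 20%, where all coding genes had 4.69%, 10.1% and 6.56% against 19.5%. By share of members, Zfp genes thus stood much nearer to all genes than by density. Without chromosomes 4, 7 and 12, which hold 122 of the members, the order turned round, at 0.940 ± 0.0282 in CON and 1.29 in FA4. Counted per gene, Zfp978 and Zfp993 held 53 of the 153 CON peaks and 19 of the 116 FA4 peaks, and Zfp936 held 4, 3 and 4 against 3, whereas Zfp638, on chromosome 6, held 0 in every CON list and 5 in FA4.

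The other lists outside the range had few CON peaks. Vomeronasal receptors, which detect pheromones, had 2, 7 and 7 members with a peak in the CON lists and 31 in FA4, of 352. These are 0.568%, 1.99% and 1.99% against 8.81%, below the shares of all coding genes (4.69%, 10.1% and 6.56% against 19.5%). Peaks per length in these receptors were 0.873 ± 0.429 and 1.58 times those of all genes. Vmn2r1 held 4 FA4 peaks and 0 in CON, and Vmn2r115 held 0 in FA4 and 2 in CON 3. Neural progenitor and patterning genes had 3, 2 and 1 members with a peak in CON and 3 in FA4, of 35 (8.57% in FA4). Gli3, the Hedgehog effector, held 2, 0 and 3 peaks against 2. Germ layer and lineage genes had 1, 2 and 1 members in CON and 3 in FA4, of 30 (10% in FA4). These relative densities rest on 1 to 8 peaks per CON list.

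Neuronal adhesion and synapse genes were the most often hit and did not part the groups. Of 44 measured, 29, 39 and 29 had a peak in the CON lists and 43 in FA4, at 0.776 ± 0.144 times the density of all genes in CON and 0.776 in FA4. Their median length was 1112 kb. Lsamp held 5, 7 and 3 peaks in CON and 12 in FA4, and Nrxn3, a presynaptic adhesion gene on chromosome 12, held 2, 7 and 3 against 1. Neural tube closure genes had 8, 6 and 8 members with a peak in CON and 16 in FA4, of 55. These are 14.5%, 10.9% and 14.5% against 29.1%, where all coding genes had 4.69%, 10.1% and 6.56% against 19.5%. Peaks per length in the closure genes were 1.65 ± 0.971 and 1.29 times those of all genes. Nf1, a Ras inhibitor, held 2, 0 and 1 against 6, Lrp2, a receptor needed for forebrain closure, 1, 0 and 1 against 3, Bmp5 0, 1 and 0 against 3, and Celsr1, of planar cell polarity, 1, 0 and 0 against 3. FA4 lay inside the CON range for both lists.

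Pluripotency genes had 0, 3 and 4 members with a peak in CON and 5 in FA4, of 24. The CON shares are 0%, 12.5% and 16.7%, where all coding genes had 4.69%, 10.1% and 6.56%. The FA4 share of 20.8% is near the 19.5% of all coding genes, and the density was 1.83 ± 1.63 times that of all genes in CON and 1.30 in FA4. Esrrb held 0, 3 and 1 against 1, Klf5 0, 0 and 1 against 0, Lifr, the receptor of leukemia inhibitory factor, 0, 1 and 0 against 1, and its effector Stat3 0, 1 and 0 against 3. Folate and one-carbon genes had 1, 3 and 5 members in CON and 9 in FA4, of 39. These are 2.56%, 7.69% and 12.8% against 23.1%, on both sides of the all-gene shares in CON and near that in FA4. Their density was 1.25 ± 1.03 times that of all genes in CON and 1.34 in FA4. Gldc, of the glycine cleavage system, held 0, 0 and 1 in CON and 3 in FA4, and Ahcyl2 held 0, 0 and 0 against 3. Fpgs, which adds glutamates to folate, held 0, 0 and 0 against 2, and Pemt 0, 0 and 2 against 0.

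Among 20 enzymes of adenine and cytosine methylation, 0, 0 and 2 had a peak in CON and 4 in FA4. The CON shares are 0%, 0% and 10%, where all coding genes had 4.69%, 10.1% and 6.56%. The FA4 share of 20% is near the 19.5% of all coding genes. Density was 0.538 ± 0.931 times that of all genes in CON and 0.954 in FA4. Dnmt3b, a DNA methyltransferase of early embryos, held 0, 0 and 1 in CON and 2 in FA4, and Mettl5 and Tet3 held 0 in every CON list and 1 in FA4. Alkbh1 (chr12:87428077-87443839) held 0, 0 and 1 in CON and 0 in FA4. The CON 3 peak (chr12:87435750-87436130, 10 tags, fold 2.98) lay inside Alkbh1 in the 1 gene table, while the authors placed it at the promoter of Mir3068, a microRNA gene. Its deposited −log10 q was 0, the weakest possible. FA0 also had 1 peak inside Alkbh1, at another place (chr12:87436865-87437113), which the authors gave to Mir3068 too.

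The remaining 5 lists differed in how many members had a peak. Of all coding genes, 4.69%, 10.1% and 6.56% had one in the CON lists and 19.5% in FA4. Olfactory receptors had 6, 4 and 2 members with a peak in CON and 17 in FA4, of 1099 (1.55% in FA4). Peaks per length in them were 1.25 ± 1.08 times those of all genes in CON and 1.15 in FA4. Hox genes had 0, 1 and 0 against 1 of 39, with Hoxc4 in CON 2 and Hoxd3 in FA4. Ribosomal protein genes had 0, 1 and 0 against 0 of 72, and Rpl3l was the 1 member. Blood genes had 0, 1 and 2 against 4 of 19 (21.1% in FA4), with Ptprc, the leukocyte marker CD45, at 0, 1 and 1 against 2. Clustered protocadherins on chromosome 18 had 18, 13 and 0 members against 12 of 57 (31.6%, 22.8% and 0% against 21.1%). Overlapping gene bodies share peaks there, so that Pcdha1 held 0, 4 and 0 against 4 and Pcdha2 the same. FA4 was inside the CON range for all 5.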

How the data were processed

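6mA peaks of 3 CON immunoprecipitations and 1 FA4 immunoprecipitation were read from the deposited lists, reduced to 1 row per peak. Per the submitters' processing notes, Cutadapt 1.9.2, Bowtie2 2.2.4 and build mm10 were used; the sources used here name no peak caller. The tag count per peak is as deposited, not normalized. Each p-value and q-value was deposited as −log10 of itself, and the deposited fold is the authors' ratio. The background of a peak was recovered as (tags + 1) / fold − 1, and called raised where over 1% above the commonest value of its list (2.57, 2.13 and 2.69 tags in CON, 1.86 in FA4). Fold and q served to rank or filter within a list.

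Peak middles were placed in a RefSeq gene table of GRCm38.p6 with 19622 protein-coding genes on the 18 autosomes (2277 Mb, from the leading gap of 3000000 bases to the last base reached). FA4 was called outside CON where it passed the range of the 3 lists; no p is given. Wilson 95% intervals cover counting error only. Members, lists and rules were chosen with earlier results of these data known. Genes were named by most peaks in a group or list and regions by median percentile of fold, and the dense bins after their values were seen. Alternatives were q at most 0.05, fold at least 5, equal length, common background, other chromosomes, windows and gene tables, and each CON list left out; leaving out chromosomes 4, 7 and 12 was chosen after seeing the data. Overlap and placement procedures were tested on simulated data. Python 3.11.15, numpy 2.4.6, pandas 2.3.3 and matplotlib 3.10.9 were used.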

Additional observations from a re-analysis of the deposited data

Results flagged for a closer look

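Peaks outside the autosomes compared also appeared. Chromosome 8 held 178, 347 and 251 peaks in the CON lists and 3774 in FA4. That is 1.24, 1.01 and 1.23 times the density of the autosomes compared in CON and 4.19 times in FA4, with 1.86 times in FA0. The X chromosome held 32, 90 and 55 peaks in CON and 165 in FA4, at 0.168, 0.198 and 0.203 times that density against 0.138. The Y chromosome held 4, 6 and 6 in CON and 18 in FA4. These counts lie in sequence that the comparisons above leave out, and no cause was tested.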

How the results depend on the processing

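Differences here are CON minus FA4, and no test stands behind them. Among peaks with q at most 0.05 the width difference turned from -27.8 to 38.4 bases and the first 3 Mb difference from -0.310 to 14.3 points. At that limit log2 density moved to -3.47, gene body to -12.4, promoter to -1.33 and gene-poor bins to -6.26 points, and overlap to 43.1%. At a fold of at least 5, log2 density was -5.44, which rests on 0, 1 and 1 CON peaks and 29 in FA4, and no share could be had. With lists of equal length (2581 peaks), width was -42.3 bases and the first 3 Mb -1.82 points. Width was -32.1 on chromosomes 1 to 19, X and Y, -28.8 at the common background and -28.4 without chromosomes 4, 7 and 12; overlap was 0.473% at the common background in both groups, and promoter 0.298 points with all genes of the table. Leaving out each CON list in turn gave log2 density -2.37 to -1.72, width -28.0 to -27.6 bases, gene body 0.606 to 1.67, promoter 0.00364 to 0.122, first 3 Mb -0.436 to -0.141 and gene-poor bins -2.06 to -0.273 points, overlap 1.79% to 2.46%, 14 to 17 chromosomes and 6 to 9 gene lists outside the CON range, with 9 without CON 3, since 2 lists span a narrower range. Of the alternatives computed, 60 stayed within 1 SD over the CON lists or 1.5 times the count. The cause of the other moves was not tested. No paired analysis was possible because the FA4 group has 1 list, and the numbering of the CON lists matches nothing in it. The median peak holds 8 or 9 tags, so absence of a peak does not show absence of the mark.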
